A study of Homo sapiens with 5 samples.

Results

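Peaks at 10 genes of the integrated stress response and the unfolded protein response were examined in 5 CUT&Tag libraries made from HepG2, a line grown from a human liver tumour. The genes were chosen by name and pathway, as genes of the ATF4, ATF6 and XBP1 arms, out of 20037 protein-coding genes of RefSeq (GRCh38, the assembly also called hg38). They were ERN1, EIF2AK3, ATF6, XBP1, ATF4, ATF5, DDIT3, TRIB3, ASNS and CHAC1, and all 10 were found in the annotation by symbol. In CUT&Tag an antibody guides a transposase that cuts and tags the DNA nearby, and a deposited peak marks an excess of such fragments. The groups were Flag-ENL Y78A, Flag-ENL wild type, H3K9bhb (β-hydroxybutyrylation of histone H3 lysine 9), H3K9cr (crotonylation) and H3K9ac (acetylation), with 1 library per group. The study's design text gives Flag or H3K9bhb antibodies on cells that stably express Flag-tagged ENL. The labels do not say whether the H3K9cr and H3K9ac libraries came from those cells, how the Flag-tagged protein was driven, whether the line was 1 clone, or whether any library was treated with a stressor or a ketone body. ENL, encoded by MLLT1, is a reader of acylated lysine in transcription elongation complexes, and Y78A changes a tyrosine of its acyl-lysine pocket.

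The unfolded protein response starts from sensors in the membrane of the endoplasmic reticulum (ER). ERN1 (IRE1) splices the XBP1 mRNA so that an active XBP1 factor is made, ATF6 is cut in the Golgi to release a transcription factor, and EIF2AK3 (PERK) phosphorylates the initiation factor eIF2. Phosphorylated eIF2 lowers general translation but favours translation of ATF4, the shared effector of the integrated stress response, whose targets include DDIT3, TRIB3, ASNS and CHAC1. In liver cells, which secrete much protein, these pathways adjust folding capacity, amino acid supply and survival.

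The lists held 5422 peaks for Y78A, 11394 for wild type ENL, 9176 for H3K9bhb, 3852 for H3K9cr and 31493 for H3K9ac on the standard chromosomes. Sequencing depth is not known here. The lowest deposited −log10 q was between 2.02 and 2.05 in the first 3 lists, 1.34 in H3K9cr and 1.31 in H3K9ac, so the last 2 lists were cut more loosely. Peak names in the list labelled H3K9ac begin with ENL and not with the mark's name, so its identity rests on the sample's label, and each H3K9ac value below is a value of the library labelled H3K9ac. Since each group is 1 library, no difference has a replicate check or a test, and every statement is about these lists. Of 15 liver genes fixed as HepG2 markers, 4 had a Y78A peak at a gene end (26.7%, beside 14.6% of all protein-coding genes), 8 a wild type ENL peak (53.3%, beside 28.6%) and 3 an H3K9bhb peak (20%, beside 23.8%). None of the 15 had an H3K9cr peak there, beside 4.49% of all genes, and 10 had an H3K9ac peak (66.7%, beside 56.4%). HNF4A, FOXA1, FOXA2 and APOB had both wild type ENL and H3K9ac, while ALB and AFP had no gene-end peak in any list. Of 10 markers of other cell types, 1 (PECAM1) had a wild type ENL peak and 2 (PECAM1 and SFTPC) an H3K9ac peak.

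Promoter windows of XBP1, ASNS and CHAC1 are printed because they hold a stress-response motif and differ in which peaks lie over them. Sequences are from RefSeq (GRCh38.p14) and run 5′ to 3′ on the gene's strand, from 250 bases before to 50 bases after the first listed start site, with the motif in capitals. The XBP1 window is chr22:28800520-28800819 (minus strand) and holds an ER stress response element (ERSE), bound by ATF6 with NF-Y, starting at −52 from the start site. The ASNS window is chr7:97872359-97872658 (minus strand) and holds a C/EBP-ATF response element (CARE), the kind of site bound by ATF4 heterodimers, at −68. The CHAC1 window is chr15:40953221-40953520 (plus strand) and holds a CARE on the opposite strand at −210.
XBP1: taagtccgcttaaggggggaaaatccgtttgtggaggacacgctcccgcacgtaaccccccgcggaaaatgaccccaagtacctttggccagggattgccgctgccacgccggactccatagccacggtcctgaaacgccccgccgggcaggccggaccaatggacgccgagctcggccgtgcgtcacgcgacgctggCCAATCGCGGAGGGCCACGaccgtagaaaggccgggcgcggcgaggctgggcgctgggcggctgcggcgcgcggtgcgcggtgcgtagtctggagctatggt
ASNS: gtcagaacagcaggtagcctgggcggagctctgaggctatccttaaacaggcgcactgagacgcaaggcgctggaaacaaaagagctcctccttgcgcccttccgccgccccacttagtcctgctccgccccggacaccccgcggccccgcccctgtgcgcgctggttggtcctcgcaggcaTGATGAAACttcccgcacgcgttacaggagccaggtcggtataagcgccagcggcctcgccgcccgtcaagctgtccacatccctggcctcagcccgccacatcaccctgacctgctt
CHAC1: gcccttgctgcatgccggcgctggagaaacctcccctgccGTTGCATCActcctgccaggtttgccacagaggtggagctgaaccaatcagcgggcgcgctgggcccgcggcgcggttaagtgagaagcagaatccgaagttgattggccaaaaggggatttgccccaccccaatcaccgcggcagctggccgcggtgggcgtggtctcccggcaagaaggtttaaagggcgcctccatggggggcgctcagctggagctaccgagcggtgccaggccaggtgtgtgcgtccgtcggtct

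The XBP1 window was overlapped by Y78A, wild type ENL, H3K9bhb and H3K9ac peaks, the ASNS window by wild type ENL, H3K9bhb and H3K9ac peaks, and the CHAC1 window by no peak. The 5 motifs searched on both strands were CARE (TGATGNAAN), ERSE (CCAAT and CCACG with 9 free bases between), ERSE-II (ATTGG and CCACG with 1 free base between), UPRE (TGACGTGG) and CRE (TGACGTCA). Each printed window held 1 match. Among 35116 RefSeq promoter windows of the same length, 3.61% held a CARE, 0.0769% an ERSE, 0.0541% an ERSE-II, 0.729% a UPRE and 1.85% a CRE. The 10 genes have 18 such windows, and 3 of the genes had a match in any of them. A match is a description of letters, and its absence says only that these letters are not in the window.

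A peak was counted at a gene end when it overlapped 1 kb either side of the start or end of the gene by at least 1 bp. At gene ends, Y78A had a peak at 6 of the 10 genes (exact 95% interval 26.2 to 87.8%), beside 14.6% of all protein-coding genes. Wild type ENL had one at 7 (interval 34.8 to 93.3%), beside 28.6% of all genes. H3K9bhb had one at 5 (interval 18.7 to 81.3%), beside 23.8%. H3K9cr had one at 2 (interval 2.52 to 55.6%), beside 4.49%, and H3K9ac at 9 (interval 55.5 to 99.7%), beside 56.4%. These intervals cover only the small number of genes, and the genes were chosen with earlier results of these data known. Peaks of all 5 libraries lay at the ends of 2 of the genes, EIF2AK3 and TRIB3, beside 3.31% of all genes.

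**Figure D1:**
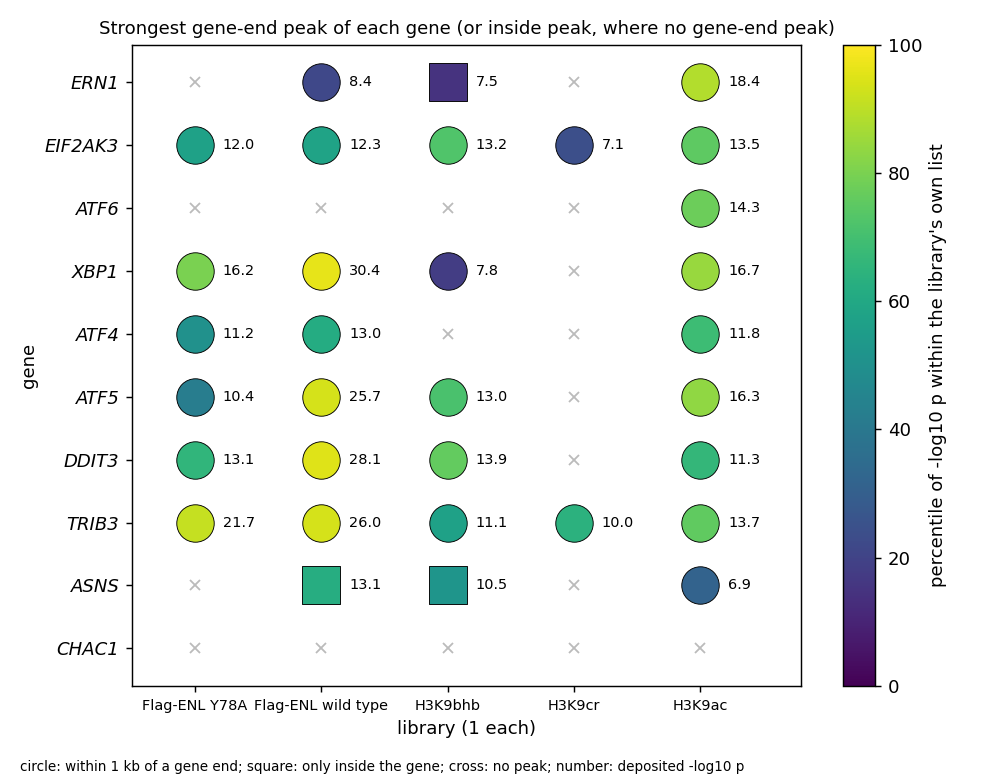
Peaks of the 10 genes (rows, sensors first, then factors, then targets) in the 5 libraries (columns). Circles are peaks within 1 kb of a gene end, squares are peaks found only inside the gene, crosses mark no peak, the number is the deposited −log10 p of the strongest such peak and the colour is its percentile within the library's own list. CHAC1 has no peak, ATF6 has H3K9ac alone, and XBP1 has the highest wild type ENL value, 30.4.

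Counting peaks inside the gene as well added genes to wild type ENL and H3K9bhb and to no other list. Y78A stayed at 6 genes, beside 19.1% of all genes counted the same way, and wild type ENL reached 8, beside 35.9%. H3K9bhb reached 7, beside 31.2%, H3K9cr stayed at 2, beside 9.34%, and H3K9ac stayed at 9, beside 64.8%. The added genes were ASNS for wild type ENL, and ASNS and ERN1 for H3K9bhb. No peak of any library lay at an end of or inside CHAC1, as for 33.9% of all protein-coding genes. Long genes have more room for inside peaks, and the genes ranged from 2128 bp (ATF4) to 197751 bp (ATF6).

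The genes with wild type ENL were then read by their other peaks. Y78A was also at a gene end of 6 of the 7, beside 49.8% of all wild type ENL genes, with ERN1 the exception. H3K9bhb was at 5 of the 7, beside 71.3%, H3K9cr at 2, beside 14.4%, and H3K9ac at all 7, beside 98%. Read the other way, wild type ENL was at 7 of the 9 genes with H3K9ac, beside 49.7% of all H3K9ac genes, and H3K9bhb at 5 of the 9, beside 41.6%. All 5 genes with H3K9bhb at an end had wild type ENL there, beside 85.8% of all H3K9bhb genes. For H3K9bhb, 5 of 7 is near the share of all wild type ENL genes, and each of these counts rests on at most 9 genes.

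**Figure D2:**
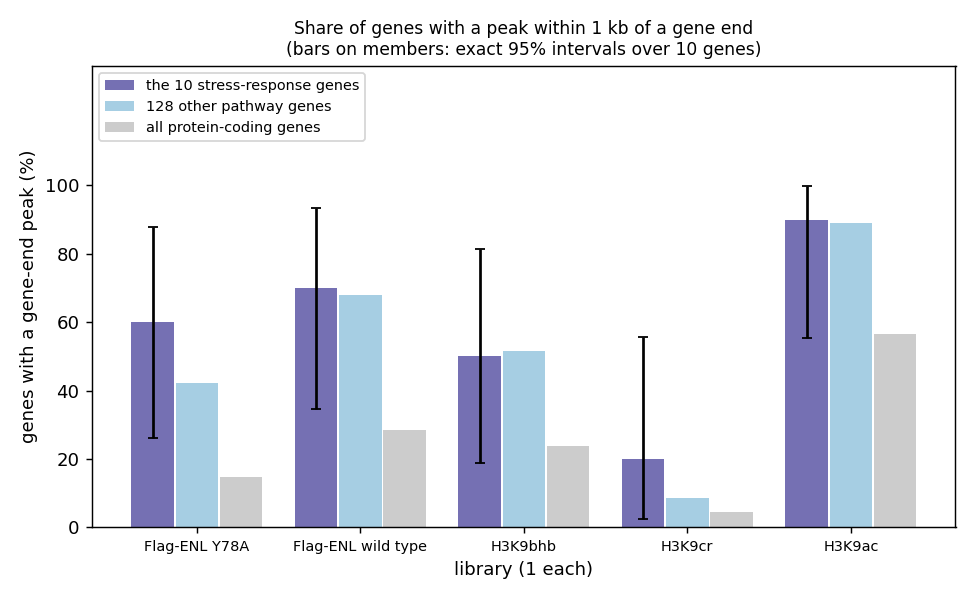
Share of genes with a peak within 1 kb of a gene end (vertical axis, %) in each library, for the 10 genes, 128 other genes of the same pathways and all 20037 protein-coding genes. Error bars are exact 95% intervals over 10 genes. Wild type ENL stands at 70% of the 10 genes, 68.0% of the other pathway genes and 28.6% of all genes.

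Several of these counts changed when the lists were cut to equal length. That cut also changed the lowest −log10 p, to 9.20 in Y78A, 13.8 in wild type ENL, 11.2 in H3K9bhb and 18.1 in H3K9ac. Length and threshold were not tested apart. With each list cut to its 3852 peaks of highest −log10 p, the length of the H3K9cr list, Y78A was at 6 of the 10 genes, beside 10.7% of all genes, and wild type ENL at 4 (XBP1, ATF5, DDIT3 and TRIB3), beside 11.9%. H3K9bhb was then at 3 (EIF2AK3, ATF5 and DDIT3), beside 11.4%, and H3K9ac at 1 (ERN1), beside 16.9%. The windows of ATF5 and DDIT3 also hold ends of other protein-coding genes, so peaks there cannot be assigned to 1 gene. When both were left out, 5 of the other 8 genes had wild type ENL, beside 22.5% of the 14327 genes with unshared windows. H3K9bhb remained at 3 of the 8, beside 18.7%.

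Among the sensors, EIF2AK3 carried peaks of all 5 libraries at its 5′ end (chromosome 2, 88556741 to 88628145, minus strand), whereas ERN1 and ATF6 carried fewer. At EIF2AK3 the Y78A peak (88627618 to 88628126) had a 5.80-fold enrichment over the caller's background and a −log10 p of 12.0, and the wild type peak (88627279 to 88627794) had 5.08-fold and 12.3. The Y78A summit lay at −512 and the wild type summit at −279 from the listed start site, 233 bp apart, against a median of 53 bp for all Y78A peaks on wild type peaks. Both ENL proteins thus peaked upstream of the listed EIF2AK3 start site, with the Y78A summit farther out, in the stretch where RefSeq also has the noncoding gene EIF2AK3-DT.

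The H3K9bhb peak of EIF2AK3 was 816 bp wide, at 5.16-fold, and its summit was 14 bp from the wild type summit. H3K9ac covered 1911 bp there, the widest of the 45 peaks found at the 10 genes. The H3K9cr peak (88628060 to 88628302) had 3.41-fold and a −log10 p of 7.09, and it did not overlap the wild type peak although both lay at the same gene end. EIF2AK3 is therefore a place where all lists had peaks but their summits spread from −279 to −623 around the promoter.

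ERN1 (chromosome 17, 64039142 to 64130144, minus strand) had a wild type ENL peak over its start (64130071 to 64130414) at 4.05-fold, with 20 summit fragments and a −log10 p of 8.39. Summit fragments are whole numbers recovered from the deposited fold and p. H3K9ac covered 1489 bp at the same start with a −log10 p of 18.4, the highest H3K9ac value among the 10 genes, and no Y78A, H3K9bhb or H3K9cr peak lay there. A further site inside ERN1, 47966 bp downstream of the start (64082018 to 64082365), had a wild type peak at 5.09-fold and a −log10 p of 12.7. An H3K9bhb peak there, at 3.92-fold, had its summit 1 bp from the wild type summit, and an H3K9ac peak had a −log10 p of 5.81. ERN1 thus had its stronger ENL peak and its H3K9bhb peak inside the gene, and Y78A at neither site. The gene table gives no exons, so whether the inner site is intronic was not determined.

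ATF6 (chromosome 1, 161766320 to 161964070, plus strand) had H3K9ac peaks and no other. The promoter peak (161766275 to 161766867) had 4.45-fold, 36 summit fragments and a −log10 p of 14.3, higher than 77.6% of H3K9ac peaks. The second, 66290 bp inside the gene (161832406 to 161832964), had 5.60-fold and a −log10 p of 10.5. ATF6 was the one acetylated gene of the 10 with no ENL or H3K9bhb peak at an end or inside.

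**Figure D3:**
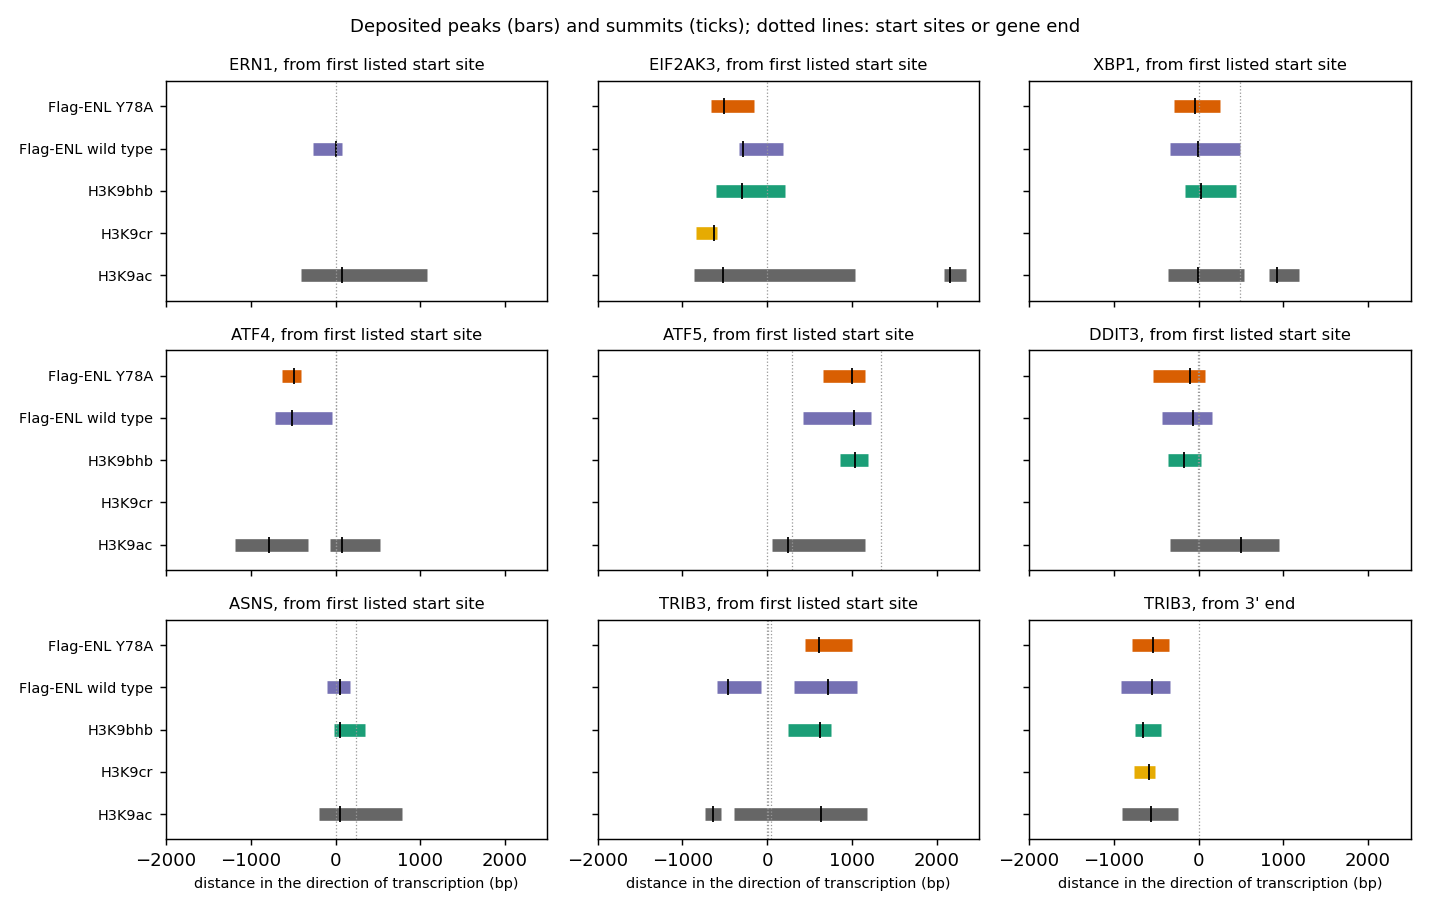
Deposited peaks (bars) and summits (ticks) of the 5 libraries around the first listed start site of 8 genes and the 3′ end of TRIB3, with distance in bp in the direction of transcription on the horizontal axis. Dotted lines mark listed start sites or the 3′ end. The summits of XBP1 and ASNS lie within 52 bp of a start site in every ENL and H3K9bhb peak drawn, those of ATF4 lie upstream at −494 (Y78A) and −517 (wild type), and the strongest TRIB3 ENL peaks lie near the 3′ end.

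XBP1, the factor made after IRE1 splicing, had the strongest wild type ENL peak of the group by p (chromosome 22, gene 28794560 to 28800569, minus strand). The Y78A peak (28800319 to 28800860) had 4.96-fold, 37 summit fragments and a −log10 p of 16.2, and the wild type peak (28800086 to 28800902) had 4.99-fold, 77 fragments and 30.4. The Y78A value was at percentile 80.0 of its list and the wild type value at percentile 96.2 of its own. Their summits lay at −40 and −7 from the start site, near the ERSE printed above. H3K9ac peaked at −2 with a −log10 p of 16.7. The H3K9bhb peak had 3.70-fold, 21 fragments and a −log10 p of 7.81, which is percentile 17.9 of the H3K9bhb list. XBP1 therefore combined a wild type peak high in its list with an H3K9bhb peak low in its own.

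ATF4 (chromosome 22, 39520559 to 39522686, plus strand) had both ENL proteins and H3K9ac but no H3K9bhb or H3K9cr peak. The Y78A peak (39519922 to 39520155) had 4.04-fold, 30 fragments and a −log10 p of 11.2, and the wild type peak (39519843 to 39520520) had 3.49-fold, 45 fragments and 13.0. Both summits lay upstream, at −494 for Y78A and −517 for wild type. H3K9ac lay in 2 peaks, with summits at −789 and 73, the stronger one upstream at a −log10 p of 11.8. Among the 500 wild type peaks closest to that of ATF4 in p, 65.8% were overlapped by H3K9bhb, so a peak of this strength without one was not rare.

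ATF5, a factor translated like ATF4 under eIF2 phosphorylation, had the highest wild type ENL fold of the group. On chromosome 19 (gene 49928906 to 49933935, plus strand) the Y78A peak (49929566 to 49930065) had 4.81-fold, 21 fragments and a −log10 p of 10.4. The wild type peak (49929326 to 49930128) had 6.97-fold, 45 fragments and 25.7. Their percentiles by p were 42.1 in the Y78A list and 93.4 in the wild type list. The H3K9bhb summit lay 13 bp from the wild type summit, at 4.91-fold and a −log10 p of 13.0, while the H3K9ac summit was 775 bp away. The ENL and H3K9bhb summits lay upstream of the last of the 3 listed ATF5 start sites. They were 1003 bp (Y78A), 1023 bp (wild type) and 1036 bp (H3K9bhb) from the 5′ gene end, just outside the 1 kb window that the peaks overlapped. When the summit had to lie in the window, ATF5 kept H3K9ac alone. In windows of 500 bp it kept wild type ENL and H3K9ac. The RefSeq promoter window of NUP62 and IL4I1 lies under the same wild type peak, so the peak cannot be told apart from one of those genes.

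DDIT3 (CHOP), a factor that promotes death in prolonged stress, had a similar set of peaks over its start (chromosome 12, gene 57516588 to 57520517, minus strand). The Y78A peak (57520442 to 57521050) had 3.88-fold, 39 fragments and a −log10 p of 13.1, and the wild type peak (57520361 to 57520951) had 4.56-fold, 78 fragments and 28.1. The H3K9bhb peak had 3.82-fold, 43 fragments and a −log10 p of 13.9, the highest H3K9bhb value among the 10 genes. The wild type summit was at −60 and the H3K9ac summit at 502. MBD6, MARS1 and LOC128125814 each have an end in the windows of DDIT3, so these peaks cannot be assigned to DDIT3 alone.

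TRIB3, a pseudokinase that dampens ATF4 and AKT signalling, differed from the others in carrying its strongest ENL peaks near its 3′ end (chromosome 20, 380760 to 397559, plus strand). There the Y78A peak (396774 to 397204) had 5.02-fold, 52 fragments and a −log10 p of 21.7, the highest Y78A value of the group, and the wild type peak (396640 to 397216) had 4.32-fold, 76 fragments and 26.0. Their summits were 4 bp apart, at −542 and −546 from the 3′ end. H3K9bhb at 3.51-fold, H3K9cr at 3.04-fold and H3K9ac at 2.81-fold lay on the same site, each fold being relative to its own library. Among 4845 wild type ENL genes with a known strand, the strongest gene-end peak lay nearer the 3′ end in 4.69%, so such a place is uncommon in this list.

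At the TRIB3 promoter the wild type list had a peak on each side of the start sites. The upstream one (380700 to 381221) had 2.87-fold and a −log10 p of 8.72, and the downstream one (381614 to 382353) had 3.48-fold and 13.6. Y78A and H3K9bhb overlapped the downstream peak, at 3.53-fold and 3.40-fold, and not the upstream one. H3K9ac peaks (380557 to 380754 and 380910 to 382470) overlapped both, the larger one 1561 bp wide. The upstream wild type summit, at 380838, lay in the gap between these H3K9ac peaks.

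ASNS, asparagine synthetase, shows why the gene ends alone were not enough. RefSeq places the 5′ end of the gene at 97928441 on chromosome 7 (gene from 97851677, minus strand), but the listed start sites are at 97872408 and 97872165 inside the gene. Every listed start site lay over 1 kb from both gene ends in 8.02% of the 15843 genes with one listed. At the inner start, the wild type peak (97872241 to 97872508) had 6.63-fold, 19 fragments and a −log10 p of 13.1. Its summit lay 56083 bp from the 5′ gene end. H3K9bhb had 6.27-fold, 14 fragments and 10.5, and H3K9ac had 5.87-fold and 16.9. The 3 summits lay within 2 bp of each other, at 50, 52 and 51 from the first start site, downstream of the CARE printed above. No Y78A or H3K9cr peak lay at ASNS, and the outer end had a weak H3K9ac peak alone, with a −log10 p of 6.87.

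CHAC1, a glutathione-degrading enzyme (chromosome 15, 40953471 to 40956512, plus strand), had no peak in any of the 5 lists within the gene or 1 kb of it. Its promoter holds a CARE, as that of ASNS does. The lists give only places that passed the caller, so a weaker signal at CHAC1 is not shown to be absent.

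Whether a wild type peak at these genes was met by Y78A was set beside wild type peaks of like strength. Y78A overlapped 7 of the 11 wild type peaks at the 10 genes, beside 42.9% of all wild type peaks. The 4 peaks of −log10 p above 25, at XBP1, DDIT3, TRIB3 (3′ end) and ATF5, were all met, and of the 500 peaks closest in p to each, between 98.2% and 98.6% were. The 4 that were not met were the ERN1 start, the upstream TRIB3 peak, the inner ERN1 site and ASNS. For the first 2 the like peaks were met in 15.8% and 13.6% of cases, and for the other 2 in 46.2% and 49%. ATF4, EIF2AK3 and the downstream TRIB3 peak were met, with like shares of 47%, 48.2% and 55.6%. The strongest peaks were thus met, the weakest were not, and peaks of −log10 p between 12.3 and 13.6 fell on both sides.

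**Figure D4:**
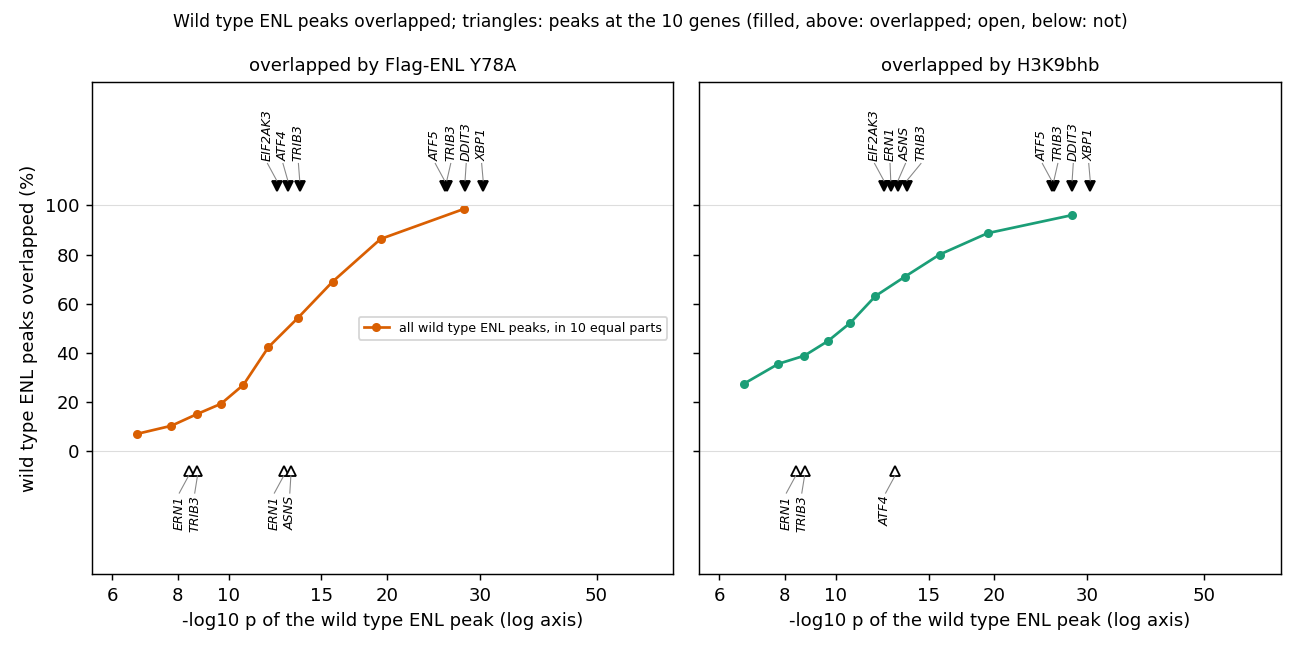
Share of wild type ENL peaks overlapped by Y78A (left) and by H3K9bhb (right), on the vertical axis in %, in 10 equal parts of the list by −log10 p (horizontal log axis). Triangles place the 11 wild type peaks at the 10 genes by their −log10 p, filled and above where overlapped, open and below where not. The 4 strongest are overlapped in both panels, ASNS and the inner ERN1 site by H3K9bhb and not by Y78A, and ATF4 by Y78A and not by H3K9bhb.

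H3K9bhb overlapped 8 of the 11 wild type peaks, beside 59.8% of all wild type peaks. Of the 500 wild type peaks closest in p, H3K9bhb met 94.2% to 96.4% for XBP1, DDIT3, ATF5 and the TRIB3 3′ end, all overlapped. That share was 66.6% to 72.2% for ASNS, the inner ERN1 site, EIF2AK3 and the downstream TRIB3 peak, also overlapped. It was 65.8% for ATF4, 38.4% for the ERN1 start and 38.6% for the upstream TRIB3 peak, none of them overlapped. All 8 H3K9bhb peaks at the 10 genes lay on a wild type peak, beside 74.7% of the whole H3K9bhb list. The median distance between the 2 summits was 25 bp at the 10 genes and 57 bp over the lists. It was 1 bp at the inner ERN1 site, 2 bp at ASNS, 13 bp at ATF5, 14 bp at EIF2AK3 and 36 bp at XBP1. At DDIT3 and the 2 TRIB3 sites it was between 96 and 115 bp. H3K9ac overlapped all 11 wild type peaks, beside 78.9%. Its summits lay at a median of 181 bp at the 10 genes, counting every overlapping pair, so some wild type peaks counted more than once. Over the lists the median was 106 bp, counting only the nearest H3K9ac summit of each wild type peak. These 2 medians were taken differently and are not comparable. All 17 H3K9ac peaks at the 10 genes, 12 of them on a wild type peak, had a median width of 659 bp. The wild type ENL peaks had a median of 577 bp. Gene-end peaks of the genome had medians of 807 bp for H3K9ac and 441 bp for wild type ENL.

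Wild type ENL peaks at these genes had a higher median of summit fragments and a lower median fold percentile than gene-end peaks at large, but they varied widely. The 11 wild type peaks had a median of 45 summit fragments, against 24 for the 5046 wild type gene-end peaks of the genome. Only 9 of the 11 were gene-end peaks, since those of ASNS and the inner ERN1 site lay inside the gene, so the sets compared here are not quite alike. The background recovered with them had a median of 12.2 fragments, against 3.79. Their median fold percentile within the list was 35.9 and their median p percentile 62.4, against 53.4 and 54.7 for all gene-end peaks. ATF5 and ASNS ranked high in fold, at percentiles 88.4 and 84.6, with backgrounds of 5.60 and 2.02 fragments. The peaks of ASNS, the ERN1 start, EIF2AK3 and the inner ERN1 site had 19, 20, 25 and 26 summit fragments, below or near the gene-end median. Of the 6 lowest fold percentiles, 3 were those of the TRIB3 peaks. Folds of these genes consequently rank them differently than p does, and both are given.

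The other genes of the same pathways were counted in 10 lists by role. Of 128 genes, Y78A was at a gene end of 54 (42.2%), wild type ENL of 87 (68.0%), H3K9bhb of 66 (51.6%), H3K9cr of 11 (8.59%) and H3K9ac of 114 (89.1%). These stand beside the 14.6%, 28.6%, 23.8%, 4.49% and 56.4% of all genes given above. Wild type ENL shares of the 10 genes and of the wider pathway were thus close, at 7 of 10 genes and 87 of 128, and 114 of the 128 had an H3K9ac peak. Folds given below for single genes are wild type ENL folds at a gene end unless a mark is named, with or without a Y78A peak at the same gene.

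ER chaperones and folding enzymes had the most ENL among the larger lists, with Y78A at 11 of 18, wild type ENL at 17 and H3K9bhb at 14. CNPY2, an ER-resident saposin-like protein, had the highest wild type fold with Y78A, at 8.45, and DNAJC10, an ER disulphide reductase, the highest without, at 5.65. Genes of ER-associated degradation had Y78A at 8 of 15, wild type ENL at 10 and H3K9bhb at 10. EDEM3, a mannosidase that marks misfolded glycoproteins, led at 8.01-fold with Y78A and also had the highest H3K9cr fold of the 128 genes, 6.20. UBE2J1, a ubiquitin-conjugating enzyme of that pathway, led those without Y78A at 6.91-fold. Translocation and ER export genes had Y78A at 7 of 17, wild type ENL at 10 and H3K9bhb at 9, led by SEC31A, a coat protein of ER export, at 8.01-fold with Y78A and SEC61B, a translocon subunit, at 6.91-fold without. LMAN1, a cargo receptor of ER export, had the highest H3K9bhb fold of the 128 genes, 10.9.

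In the eIF2 branch, genes of eIF2, its exchange factor eIF2B and the other eIF2 kinases had Y78A at 3 of 11, wild type ENL at 8 and H3K9bhb at 7. EIF2S1, the subunit that the kinases phosphorylate, stood at 6.70-fold with Y78A, and EIF2S3, the gamma subunit, at 6.51-fold without. All 7 genes of eIF2 dephosphorylation and feedback had wild type ENL, 4 of them with Y78A and 4 with H3K9bhb. PPP1CB, a catalytic subunit of protein phosphatase 1, led at 6.53-fold with Y78A, and PPP1CC, another such subunit, stood at 4.63-fold without. Among transcription regulators grouped with ATF4 (ATF3, CEBPB, CEBPG, NFE2L2 and NUPR1), Y78A was at 2 of 5, wild type ENL at 3 and H3K9bhb at 2. NFE2L2, the oxidative stress factor NRF2, stood at 4.51-fold with Y78A and CEBPG, a dimer partner of ATF4, at 3.82-fold without.

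Among targets of the ATF4 arm, those in amino acid supply had Y78A at 8 of 18, wild type ENL at 11 and H3K9bhb at 5, a share of 27.8% beside 23.8% of all genes. CTH, which makes cysteine, led at 6.95-fold with Y78A, and SLC7A11, the cystine importer, at 5.25-fold without. Of 17 other targets, 5 had Y78A, 9 had wild type ENL and 5 had H3K9bhb, led by MAP1LC3B, an autophagosome protein, at 5.53-fold with Y78A and WARS1, a tRNA synthetase, at 5.64-fold without. The ATF6 arm's proteases, partners and paralogs had Y78A at 4 of 11, wild type ENL at 7 and H3K9bhb at 5. CREB3L2, an ATF6 relative, led at 8.48-fold with Y78A, and MBTPS1, the first protease that cuts ATF6, at 6.27-fold without. MBTPS2, the second protease, had H3K9ac alone at its gene ends, as ATF6 did, at 7.36-fold, the highest H3K9ac fold of the 128 genes. H3K9ac alone was not particular to these genes, and was also found at EIF2AK2, ATF6B and SEC62, among others. Of 9 IRE1 arm partners, 2 had Y78A, 5 had wild type ENL and 5 had H3K9bhb, led by TMBIM6, an inhibitor of IRE1 signalling, at 6.83-fold with Y78A and SEC61A1, the translocon pore, at 6.17-fold without.

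**Figure D5:**
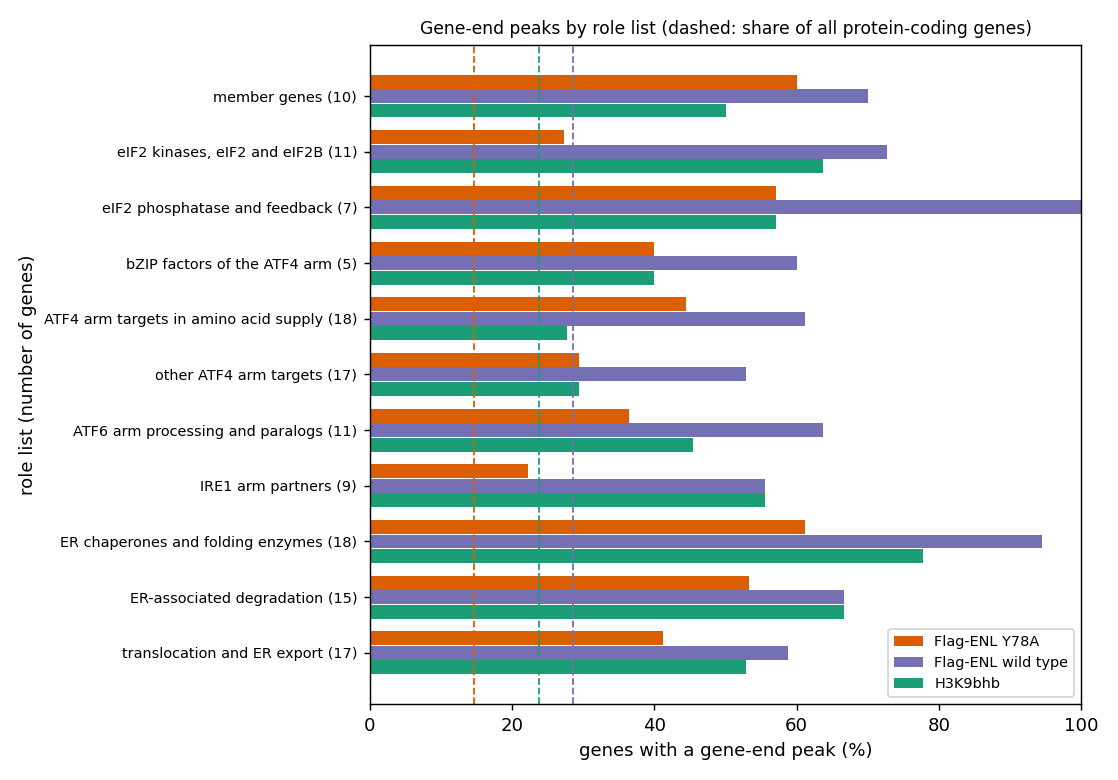
Share of genes with a gene-end peak (horizontal axis, %) for Y78A, wild type ENL and H3K9bhb in the 10 genes and 10 role lists, with the number of genes in brackets. Dashed lines are the shares of all protein-coding genes, 14.6%, 28.6% and 23.8%. Wild type ENL is highest at eIF2 phosphatase and feedback (7 of 7) and ER chaperones (17 of 18), and H3K9bhb is lowest at amino acid targets of ATF4 (5 of 18).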

How the data were processed

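Peak lists of 5 CUT&Tag libraries of HepG2 cells, 1 per group, were used, grouped by title. The tools named, per the submitters' processing notes, are MACS2, Bowtie2, FastQC and deepTools, with hg38 as build and no versions. Call settings, any control library and duplicate removal are not stated. The authors' fold is a ratio of summit signal to the caller's background. The authors gave p and q as −log10 values. Their deposited score column was not used. Tagging favours open chromatin, and its part in shared peaks was not tested.

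Peaks were matched, on standard chromosomes only, to RefSeq protein-coding genes (GRCh38.p14) with start sites and strand from its promoter table. Summit fragments and background were solved from fold and p, within a relative tolerance of 3e-05 for at least 99.98% of peaks of each list. Folds were used within a list only. Intervals are exact (Clopper-Pearson) at 95% and cover counting only. Python 3.11.15, pandas 2.3.3, scipy 1.17.1 and bedtools 2.31.1 were used. Tested on simulated data, the matching recovered 100% of 200 planted gene-end overlaps. On the deposited lists, its count of wild type peaks on H3K9bhb differed from bedtools by 0 peaks.

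The 10 genes and the lists were chosen with earlier results of these data known. Of each of the 10 role lists, the rule took up to 3 genes of highest wild type fold with a Y78A peak and up to 2 without. The text gives the first of each. From all 128 genes together, the rule also took the gene of highest fold for each mark. Alternatives were windows of 500 and 2500 bp, summits in the window, a deposited −log10 q of at least 3, lists of equal length, the 5′ end alone, other overlap rules, and, chosen after seeing the data, listed start sites and unshared windows.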

Additional observations from a re-analysis of the deposited data

How the results depend on the processing

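Of 104 counts recomputed under the alternatives, 85 stayed within 1.5 times the value reported. Some of these could not change, since the cut to equal length left the H3K9cr list whole. Counts without genes of shared windows are out of 8 genes and were compared without rescaling. The cut to equal length moved the most. At gene ends it gave wild type ENL at 4 genes, H3K9bhb at 3 and H3K9ac at 1, and the same numbers, 4, 3 and 1, with inside peaks. Of the 4 wild type ENL genes then left, 2 had H3K9bhb, beside 64.4% of all wild type ENL genes in the cut lists. H3K9ac was at 0 of them, beside 39.6%, and H3K9cr at 1, beside 26.8%. Of 4 wild type peaks left at the 10 genes, 4 were overlapped by Y78A, beside 70.6% of all wild type peaks left. H3K9bhb overlapped 2, beside 62.2%. Shorter lists have fewer peaks to count. H3K9cr, alone and with wild type ENL, was at 1 gene in windows of 500 bp, at the 5′ end alone and at listed start sites, which left EIF2AK3. In the same order, H3K9cr was at 3.91%, 4.51% and 4.99% of all genes, and at 13.7%, 14.5% and 15.1% of all wild type ENL genes. The TRIB3 H3K9cr peak has its summit at −587 from the 3′ end, and lies outside all of these windows. Without genes of shared windows H3K9bhb was at 3 of 8, beside 18.7% of all such genes, and at 3 of the 5 with wild type ENL, beside 69.6%. Y78A at gene ends ranged between 4 and 6 genes under all alternatives, beside 10.7% to 16.4% of all genes counted. No paired analysis was possible because each group has 1 library. Read totals are unknown, so a missing peak may reflect depth or threshold, which was not tested.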

Other observations

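A second site lay beyond the 1 kb window of DDIT3, upstream of its 5′ end on chromosome 12. MBD6 has an end inside the DDIT3 windows, so this second site cannot be assigned to DDIT3. There the Y78A peak (57522097 to 57522471) had 3.61-fold, 36 fragments and a −log10 p of 11.3, and the wild type peak (57521776 to 57522644) had 3.52-fold, 59 fragments and 16.4. H3K9bhb had 2.99-fold and 8.68 at the same site, and the H3K9ac peak nearby (57522993 to 57523229) had 1.75-fold and 4.26. No other of the 10 genes had a further peak between 1 kb and 2.5 kb of its ends.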
